A study of Mus musculus with 6 samples.

Results

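The 9 genes Gria1, Gria2, Gria3, Gria4, Grin1, Grin2a, Grin2b, Grin2d and Grin3a encode subunits of AMPA and NMDA receptors, the main ionotropic glutamate receptors of the nervous system. They were taken by gene symbol, by a rule with no threshold on their values, and are 9 of the 17027 gene symbols listed. Their 49 listed isoforms were summed per gene, and all 9 passed the filter on low values that left 14390 genes for testing (mean of at least 1 FPKM over the 6 libraries). FPKM is the number of fragments scaled to transcript length and to the number of mapped fragments, so levels of genes of unequal length can be compared.

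The cells were retinal ganglion cells (RGCs), the output neurons of the retina, from wild-type mice of strain C57/6NCrl at 3 stages: E18 (embryonic day 18), P5 (postnatal day 5) and Adult (8 weeks old). Each age had 2 libraries. In all 3 groups the cells were taken by panning on Thy1, a surface antigen of RGCs, after antibody depletion of macrophages and, in the sample protocol but not in the series description, of amacrine cells. No label ties the libraries to separate animals; the p-values therefore describe the spread of these particular libraries, which may be technical. The E18 and Adult libraries keep the replicate numbers of their labels, whereas the P5 libraries, whose columns share 1 header, are called a and b.

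AMPA receptors assemble from the products of Gria1 to Gria4 and carry fast excitatory transmission. The Gria2 product, once its RNA is edited, keeps the channel nearly closed to calcium. Each Gria gene has a pair of alternative exons, flip and flop, that encode a short stretch of the ligand-binding region and alter how quickly the channel desensitizes; in rodent brain, flip forms prevail before birth and flop forms gain after it. NMDA receptors need the Grin1 product, which binds glycine, together with Grin2 products, which bind glutamate, or Grin3 products. A switch from Grin2b-rich to Grin2a-rich receptors is known from the maturation of many central synapses, and Grin3a is known as a subunit of young neurons that lowers calcium entry.

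The alternative exons are shown because the isoform results below rest on them. Gria2 has the highest level of the AMPA genes and Gria3 the largest shift in the flop share of flip plus flop FPKM. The sequences are those of the GENCODE M21 transcripts (GRCm38), read 5′ to 3′ on the strand of the gene, and capitals mark the bases at which flip and flop differ.
Gria2 flip, chr3:80690404-80690518, minus strand: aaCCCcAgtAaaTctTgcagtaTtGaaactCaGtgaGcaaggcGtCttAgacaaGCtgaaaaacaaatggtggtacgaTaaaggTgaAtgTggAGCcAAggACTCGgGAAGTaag
Gria2 flop, chr3:80691320-80691434, minus strand: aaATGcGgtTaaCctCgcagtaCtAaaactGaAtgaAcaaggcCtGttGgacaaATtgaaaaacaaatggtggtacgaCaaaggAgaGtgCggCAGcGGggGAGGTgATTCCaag
Gria3 flip, chrX:41669501-41669615, plus strand: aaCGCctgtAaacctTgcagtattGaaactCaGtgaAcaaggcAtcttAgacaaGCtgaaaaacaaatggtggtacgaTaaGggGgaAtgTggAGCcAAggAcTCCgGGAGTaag
Gria3 flop, chrX:41654810-41654924, plus strand: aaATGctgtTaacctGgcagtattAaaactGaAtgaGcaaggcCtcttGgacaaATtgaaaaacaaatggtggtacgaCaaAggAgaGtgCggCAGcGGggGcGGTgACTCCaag
Both members of a pair are 115 bases long. They differ at 36 bases in Gria2 and in Gria1, at 32 in Gria3 and at 31 in Gria4.

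Grin1 has a pair of cassette exons, which are present or absent as a whole and are shown all in capitals. The N1 cassette lies in the extracellular part of the subunit and the C1 cassette in its cytoplasmic tail.
Grin1 N1, chr2:25311343-25311405, minus strand: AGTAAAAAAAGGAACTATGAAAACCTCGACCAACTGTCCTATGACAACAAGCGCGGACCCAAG
Grin1 C1, chr2:25294438-25294548, minus strand: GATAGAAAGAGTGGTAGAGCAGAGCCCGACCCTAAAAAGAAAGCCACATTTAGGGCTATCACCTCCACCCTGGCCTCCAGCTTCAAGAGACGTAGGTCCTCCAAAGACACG
The N1 cassette is 63 bases long and the C1 cassette 111 bases.

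The labelled cell type was checked on marker lists. The 16 listed RGC markers summed to 4813 and 5476 FPKM in E18 libraries, 5110 and 4716 FPKM in P5 libraries, and 567 and 379 FPKM in Adult libraries. Of these 16 genes, 15 were lower in Adult than in P5 libraries at an adjusted p under 0.05 (limma), with a median log2 difference of -3.68. Thy1, the panning antigen, had 138 and 129 FPKM in Adult libraries, against 391 and 369 FPKM in P5 libraries. Markers of several other retinal cell types were higher in Adult libraries: the 10 amacrine markers summed to 1615 and 2166 FPKM there, against 398 and 433 FPKM in P5 libraries, and the 9 Muller glia markers to 1512 and 1814 FPKM, against 206 and 212 FPKM. Rod markers summed to 5364 FPKM in Adult replicate 1 and 636 FPKM in Adult replicate 2, against 2.14 and 2.30 FPKM in P5 libraries, and bipolar markers to 151 and 132 FPKM, against 15.8 and 12.6 FPKM. At an adjusted p under 0.05, 9 of 9 tested amacrine markers, 7 of 8 tested Muller glia markers, 10 of 10 rod markers and 8 of 8 tested bipolar markers were higher in Adult against P5. In the E18 and P5 libraries the bipolar markers Vsx1, Grm6 and Trpm1 were each below 0.1 FPKM. Thus the Adult libraries go against their label in part, since amacrine and Muller glia markers each summed to more than RGC markers there, and an Adult value below is that of such a library. In bulk RNA, fewer cells of a type and less RNA per cell cannot be told apart, and neither can the age and the change in cell makeup. The comparison of P5 with E18 does not use these libraries except for the shared estimate of the spread.

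**Figure D1:**
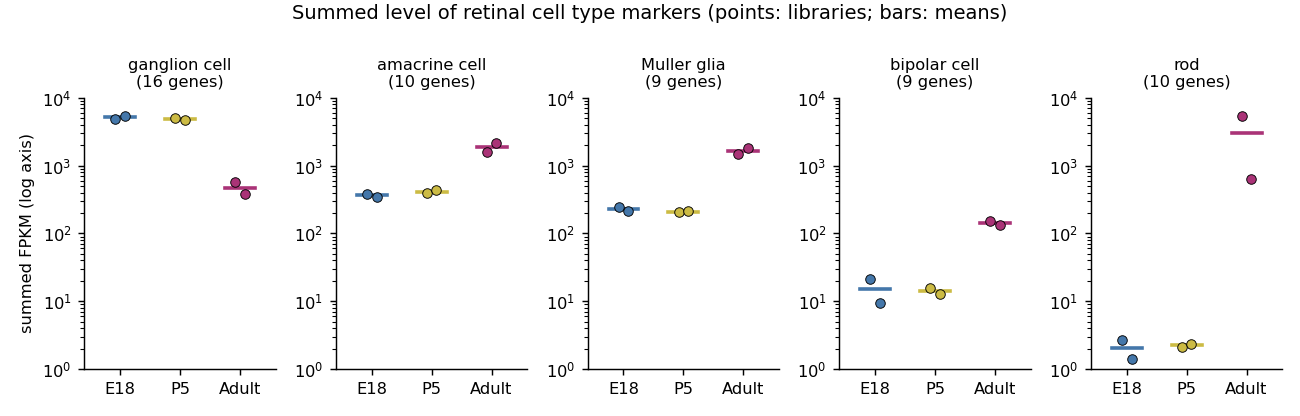
Summed FPKM (log axis) of the marker genes of 5 retinal cell types at E18, P5 and in Adult; points are libraries and bars their means. The ganglion cell sum is at or above 4716 FPKM at E18 and P5 and at or below 567 FPKM in Adult, whereas the other 4 sums are highest in Adult.

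The comparisons asked how the levels of the subunits differ between the stages of RGC development and maturity that the labels give. Between E18 and P5 the 9 genes stood somewhat higher, Grin1 and Grin2d past the threshold. In Adult libraries the NMDA genes diverged: Grin1, Grin2a and Grin2d were higher than at P5 and Grin2b and Grin3a lower, while Gria3 was the only AMPA gene called in that comparison (limma). The levels are described first for the AMPA genes, then for the NMDA genes.

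**Figure D2:**
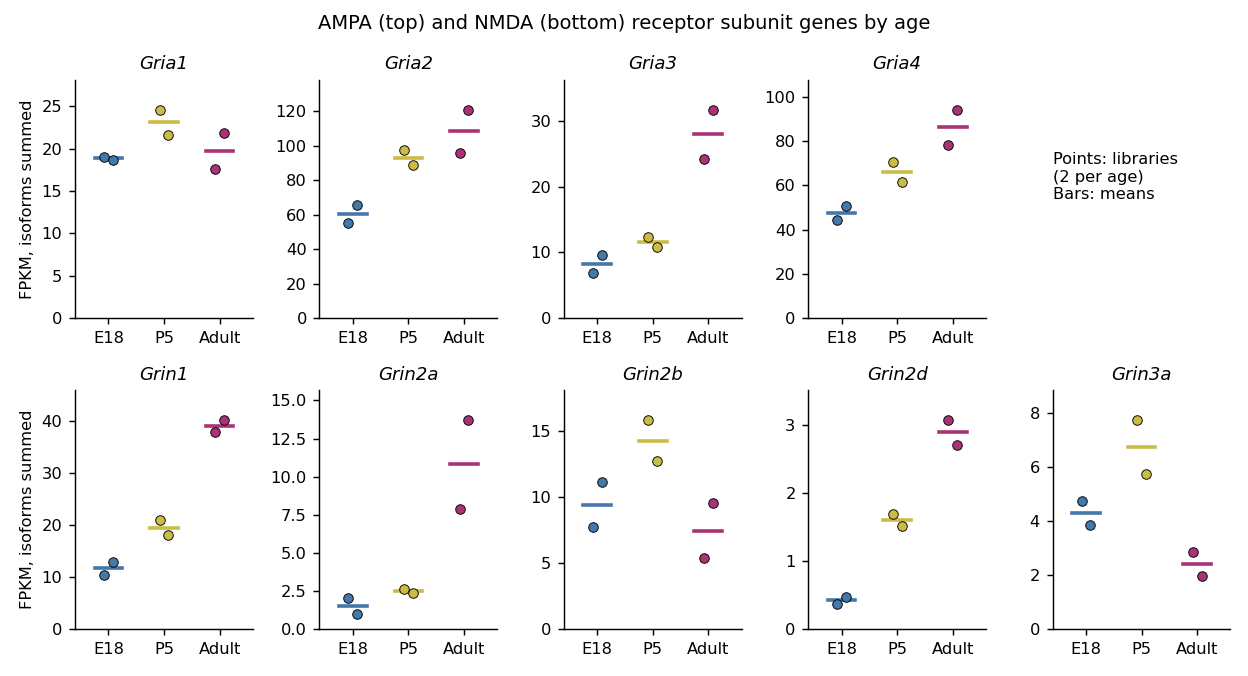
FPKM of each of the 9 genes at E18, P5 and in Adult; points are libraries (2 per age) and bars their means, with the AMPA genes in the upper row and the NMDA genes in the lower row. Gria3, Gria4, Grin1, Grin2a and Grin2d are highest in both Adult libraries, and Grin2b and Grin3a are highest in the P5 libraries.

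Gria2 (chromosome 3, minus strand) was the most abundant of the AMPA genes at every age. It had 55.0 and 65.9 FPKM in E18 libraries, 97.3 and 88.7 FPKM in P5 libraries and 96.0 and 121 FPKM in Adult libraries. Both P5 libraries were above both E18 libraries, and the P5 and Adult libraries overlapped. The log2(FPKM + 1) difference was 0.62 (SE 0.15) for P5 against E18, where the adjusted p of 0.0534 missed the threshold, and 0.83 (SE 0.15; adjusted p = 0.00380, limma) for Adult against E18.

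Gria4 (chromosome 9, minus strand), a subunit with fast kinetics, was second in level at all 3 ages. It had 44.4 and 50.9 FPKM in E18 libraries, 70.6 and 61.4 FPKM in P5 libraries and 78.4 and 94.3 FPKM in Adult libraries. The libraries of the 3 ages did not overlap. Only Adult against E18 passed the threshold, with a log2 difference of 0.84 (SE 0.14; adjusted p = 0.00251, limma); Adult against P5 gave 0.38 with an adjusted p of 0.0530.

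Gria1 (chromosome 11, plus strand), a subunit known for activity-dependent insertion at synapses, passed no test with the deposited FPKM. It had 19.0 and 18.7 FPKM in E18 libraries, 24.6 and 21.6 FPKM in P5 libraries and 17.6 and 21.8 FPKM in Adult libraries. The Adult values overlapped those of both younger ages. Its log2 differences were 0.28 (95% interval -0.06 to 0.61) for P5 against E18, -0.22 (-0.56 to 0.11) for Adult against P5 and 0.05 (-0.28 to 0.39) for Adult against E18.

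Gria3 (chromosome X, plus strand), which forms channels with the other AMPA subunits, was the least abundant AMPA gene at E18 and P5 and the third in Adult. It had 6.83 and 9.55 FPKM in E18 libraries, 12.3 and 10.8 FPKM in P5 libraries and 24.2 and 31.7 FPKM in Adult libraries. Both Adult libraries stood above all 4 younger ones. Its mean level in Adult libraries was 2.43 times that of P5 libraries, a log2 difference of 1.20 (SE 0.20; adjusted p = 0.00274, limma), and against E18 the difference was 1.66 (SE 0.20; adjusted p = 0.000693, limma).

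The order of the AMPA genes was thus Gria2, Gria4, Gria1, Gria3 at E18 and P5, and Gria2, Gria4, Gria3, Gria1 in Adult libraries. At no age did the libraries of neighbours in that order overlap, although the lowest Gria3 value in Adult, 24.2 FPKM, lay close to the highest Gria1 value, 21.8 FPKM. Shares within the family do not depend on the scaling between libraries. Of the summed FPKM of the AMPA genes, Gria2 held 44.7% ± 1.05 at E18, 48.1% ± 0.775 at P5 and 44.7% ± 0.438 in Adult (SD, n = 2 each). Gria4 held 35.3% ± 0.271, 34.1% ± 0.568 and 35.7% ± 0.836 at the same ages.
The shares of these abundant subunits therefore moved by a few percentage points at most. The larger differences were in the minor subunits. Gria3 held 6.02% ± 0.792 at E18, 5.95% ± 0.0829 at P5 and 11.5% ± 0.417 in Adult, and Gria1 held 14.0% ± 1.58, 11.9% ± 0.124 and 8.12% ± 0.0190 (SD, n = 2 each). Gria1 shares fell into 3 separate ranges, one per age, and Gria3 shares separated Adult from both younger ages.

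Grin1 (chromosome 2, minus strand), the obligatory NMDA subunit, was the most abundant of the 5 NMDA genes at all 3 ages. It had 10.4 and 12.9 FPKM in E18 libraries, 20.9 and 18 FPKM in P5 libraries and 38.0 and 40.2 FPKM in Adult libraries. The ages did not overlap. Grin1 rose at P5 against E18 by 0.70 on the log2 scale (SE 0.14; adjusted p = 0.0336, limma) and in Adult against P5 by 0.97 (SE 0.14; adjusted p = 0.00159, limma). The P5 against E18 call was lost when any 1 of the 6 libraries was left out (adjusted p between 0.0634 and 0.233). An opposite-strand gene, Grin1os, shares exonic positions with Grin1, and whether the authors' counting used strand is not given in the sources used here, so part of this value could be reads of Grin1os.

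Grin2a (chromosome 16, minus strand), the subunit of mature synapses, had 2.01 and 0.951 FPKM in E18 libraries, 2.65 and 2.34 FPKM in P5 libraries and 7.90 and 13.7 FPKM in Adult libraries. Both Adult libraries were far above the 4 younger ones. The mean was 4.34 times higher in Adult than in P5 libraries, a log2 difference of 1.71 (SE 0.31; adjusted p = 0.00375, limma), and P5 against E18 gave 0.53 (SE 0.31; adjusted p = 0.303).

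Grin2b (chromosome 6, minus strand), the subunit of immature synapses, was highest at P5. It had 7.73 and 11.1 FPKM in E18 libraries, 15.8 and 12.7 FPKM in P5 libraries and 5.39 and 9.51 FPKM in Adult libraries. Both P5 libraries lay above all others, and Adult and E18 libraries overlapped. In Adult against P5 it fell by 0.89 on the log2 scale (SE 0.28; adjusted p = 0.0323, limma), and P5 against E18 gave 0.57 (SE 0.28; adjusted p = 0.235). The call for Adult against P5 was lost without either P5 library (adjusted p = 0.166 without a and 0.0784 without b) and without Adult replicate 1 (adjusted p = 0.163), and it rested on a short isoform described below.

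Grin2d (chromosome 7, minus strand), a subunit of slowly closing channels, was the least abundant of the 5 NMDA genes described here at E18 and P5. It had 0.366 and 0.475 FPKM in E18 libraries, 1.69 and 1.52 FPKM in P5 libraries and 3.07 and 2.71 FPKM in Adult libraries. The ages did not overlap. Grin2d rose at P5 against E18 by 0.88 on the log2(FPKM + 1) scale (SE 0.18; adjusted p = 0.0336, limma), which understates the 3.82 times higher mean because the levels are close to the pseudocount of 1 FPKM, and in Adult against P5 by 0.58 (SE 0.18; adjusted p = 0.0297, limma). The P5 against E18 call was lost when any E18 or P5 library was left out (adjusted p between 0.0692 and 0.216) and with annotated isoforms only (0.72; adjusted p = 0.179). The Adult against P5 call was lost without the same libraries (adjusted p between 0.0509 and 0.0765), with a pseudocount of 0.1 (adjusted p = 0.0604), with quantile normalization (0.30; adjusted p = 0.206) and with annotated isoforms only (0.31; adjusted p = 0.405).

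Grin3a (chromosome 4, minus strand) had 4.74 and 3.85 FPKM in E18 libraries, 7.74 and 5.73 FPKM in P5 libraries and 2.84 and 1.98 FPKM in Adult libraries. Both Adult libraries were below the 4 younger ones. It fell in Adult against P5 by 1.18 on the log2 scale (SE 0.21; adjusted p = 0.00376, limma). Adult against E18 gave -0.64 (SE 0.21, adjusted p = 0.0384, limma). That call was lost without E18 replicate 1 (-0.52), E18 replicate 2 (-0.76) or Adult replicate 2 (-0.46). It was also lost with protein-coding scaling (-0.44, adjusted p = 0.159, limma) and with annotated isoforms only (-0.55, adjusted p = 0.0939, limma).

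The order of these 5 NMDA genes was Grin1, Grin2b, Grin3a, Grin2a, Grin2d at E18 and P5, and Grin1, Grin2a, Grin2b, Grin2d, Grin3a in Adult libraries. Neighbours whose libraries overlapped were Grin1 and Grin2b at E18, and Grin2a and Grin2b as well as Grin2d and Grin3a in Adult. Counting only isoforms of at least 2000 bases, Grin3a averaged 4.29 FPKM at E18 and 6.73 FPKM at P5. Grin2b then averaged 3.74 and 5.49 FPKM, below Grin3a, with overlapping libraries at both ages. The order of the means in Adult was the same by that count.

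Read against all genes, 2 of the 9 members were called higher for P5 against E18 and 0 lower, where 5.52% of all tested genes were called higher, 4.95% lower and 10.5% in either direction. All 9 had both P5 libraries above both E18 libraries, as 29.0% of all genes did, and 0 had both below, as 34.2% of all genes did. The median log2 difference was 0.54 for the members and -0.03 for all genes. With the 4 libraries of these ages alone in the fit, Grin2d remained called (adjusted p = 0.0407) and Grin1 did not (adjusted p = 0.0738).
For Adult against P5, 4 members were called higher and 2 lower, where 26.2% of all tested genes were called higher, 33.7% lower and 59.8% in either direction. For Adult against E18, 6 were called higher and 1 lower, where 25.3% of all tested genes were called higher, 34.4% lower and 59.7% in either direction. More than 1 gene in 2 was thus called, and a call by itself does not set a member apart. Libraries did not overlap for 5 higher and 2 lower members in Adult against P5 (35.6% and 43.1% of all genes) and for 6 higher and 1 lower in Adult against E18 (37.1% and 47.0%). The members' median log2 difference was 0.38 in Adult against P5 and 0.84 in Adult against E18, where all genes had medians of -0.07 and -0.11. The 3 comparisons share libraries, so their values stand side by side and are not independent of each other.

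**Figure D3:**
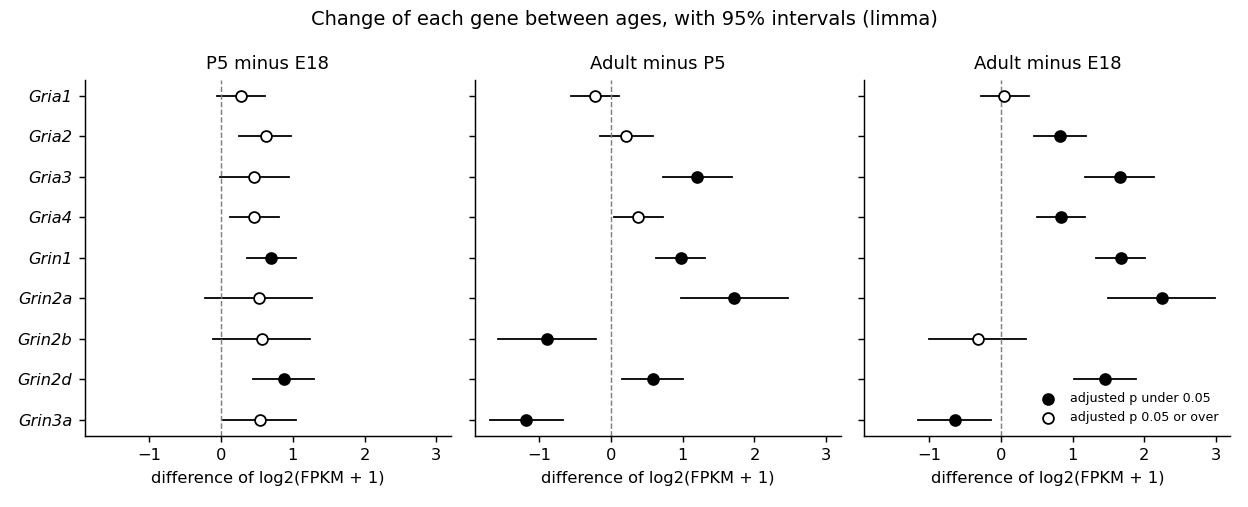
Difference in log2(FPKM + 1) of each gene for P5 minus E18, Adult minus P5 and Adult minus E18, with 95% intervals from limma; filled points have an adjusted p under 0.05. All 9 points lie above 0 for P5 minus E18, whereas for Adult minus P5 Grin2a is at 1.71 and Grin3a at -1.18.

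The direction of the AMPA genes in Adult depended on the scaling. TPM lowers the median of all genes to -0.76 for Adult against P5. With TPM, Gria2 was at -0.54, Gria4 at -0.37 and Gria1 at -0.96, all called lower (adjusted p = 0.00780, 0.0271 and 0.000644, limma). Gria3 remained higher at 0.50 (adjusted p = 0.0443, limma). With scaling to protein-coding genes, which puts the median of all genes at 0.22, Gria2 was at 0.54 and Gria4 at 0.71, and with quantile normalization at 0.58 and 0.73, all past the threshold (adjusted p between 0.00342 and 0.0240, limma). Grin2b was at -0.64 with protein-coding scaling, where its call was lost (adjusted p = 0.114). With TPM, Grin2a was at 1.16 (adjusted p = 0.0196), Grin1 at 0.25 (adjusted p = 0.129), Grin2d at 0.07 (adjusted p = 0.784), Grin2b at -1.63 (adjusted p = 0.00149) and Grin3a at -1.91 (adjusted p = 0.000522). For Adult against E18, TPM left Gria2 at 0.22 and Gria4 at 0.23, without a call (adjusted p = 0.161 and 0.115, limma). Gria3, Grin1, Grin2a and Grin2d remained called higher and Grin3a lower. Gria1 at -0.55 and Grin2b at -0.91 were called lower with TPM only (adjusted p = 0.00814 and 0.0188, limma). The part of the other retinal cells in these values was not tested.

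The ratio of Grin2a to Grin2b is free of the scaling between libraries, since both genes are measured in the same library. It was 0.260 and 0.0858 in E18 libraries, 0.167 and 0.184 in P5 libraries and 1.47 and 1.44 in Adult libraries. Grin2b therefore exceeded Grin2a in all 4 younger libraries and Grin2a exceeded Grin2b in both Adult libraries. On the log2 scale the ratio was 0.54 ± 0.02 in Adult libraries and -2.51 ± 0.09 in P5 libraries (SD, n = 2 each), a difference of 3.05. Against E18 the difference was 3.28.
With 2 libraries per age an exact two-sided permutation test cannot go below p = 0.333, which both of these differences gave. Over all 6 libraries, the exact permutation p for any difference among the ages was 0.200, where 0.0667 is the smallest that 2 libraries in each of 3 ages allow. P5 against E18 gave 0.23, with overlapping libraries (exact permutation p = 1). The sign of that small difference was set by the E18 libraries, with values of 1.03 without E18 replicate 1 and -0.57 without E18 replicate 2. E18 replicate 1, in which the ratio was higher, also held more of the progenitor and cell cycle markers, 97.2 FPKM in sum against 12.7 FPKM in E18 replicate 2; the part of these cells in the ratio was not tested.

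The balance of Grin2a and Grin2b can also be given as shares. Of the summed FPKM of Grin2a, Grin2b and Grin2d, Grin2b held 82.5% ± 8.57 at E18, 77.6% ± 1.24 at P5 and 34.8% ± 2.62 in Adult (SD, n = 2 each). Grin2a held 13.8% ± 8.70, 13.6% ± 0.672 and 50.6% ± 3.25. Grin2d held 3.71% ± 0.128, 8.77% ± 0.570 and 14.6% ± 5.87, with 18.7% in Adult replicate 1 and 10.4% in Adult replicate 2. Counted in fragments, which are not divided by length, the Grin2d share was 2.89% at E18, 6.90% at P5 and 7.99% in Adult. By that count Grin2a held 49.3% and Grin2b 42.7% in Adult. The ratio of Grin2a to Grin2b in fragments was 1.12 and 1.19 in Adult libraries, nearer to equal levels than by FPKM. In P5 libraries it was 0.163 and 0.198.
By FPKM, Adult libraries were apart from the others in all 3 shares, and in Grin2d the E18 and P5 libraries were apart as well. Exact permutation tests over the 6 libraries were run for the 7 shares within the AMPA and Grin2 groups. Gria1 and Grin2d reached the smallest possible p of 0.0667 and the others 0.133 or 0.200, and each was 0.200 after Benjamini-Hochberg adjustment. In this design, no share could have passed a threshold of 0.05.

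**Figure D4:**
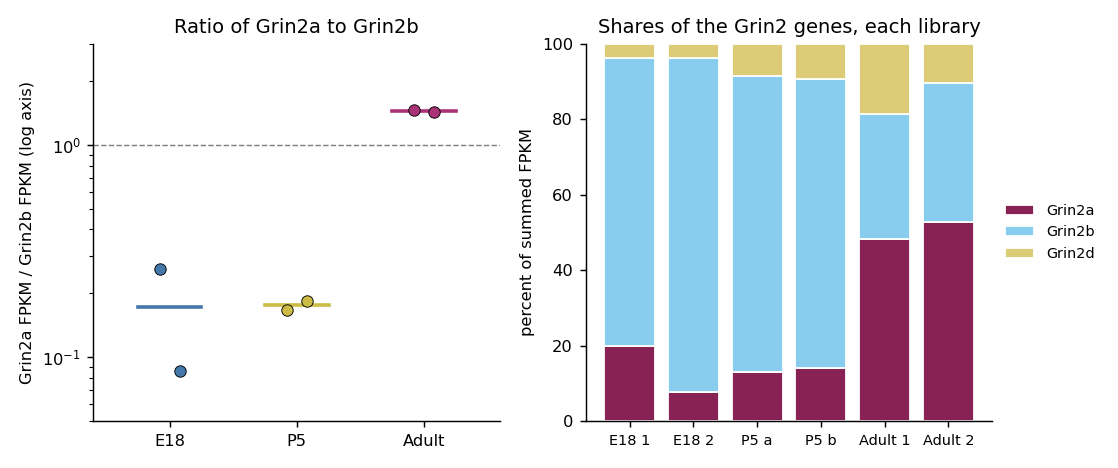
Left, ratio of Grin2a to Grin2b FPKM (log axis) at E18, P5 and in Adult; points are libraries, bars their means, and the dashed line marks equal levels. Right, percent of the summed Grin2a, Grin2b and Grin2d FPKM in each library. The ratio is at or below 0.260 in the 4 younger libraries and at 1.47 and 1.44 in the Adult libraries.

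Summed over all isoforms, Grin1 and the Grin2 genes also differed in their balance. The ratio of Grin1 to the summed FPKM of Grin2a, Grin2b and Grin2d was 1.03 and 1.03 in E18 libraries, 1.04 and 1.08 in P5 libraries, and 2.33 and 1.55 in Adult libraries. With Grin2c in the sum, it was 0.995 and 1.02, 0.990 and 1.04, and 2.06 and 1.35 at the same ages. Grin1 held 42.6% ± 1.95 of the summed FPKM of the 5 NMDA genes at E18, 43.7% ± 1.22 at P5 and 62.7% ± 5.29 in Adult, while Grin3a held 16.0% ± 3.95, 15% ± 1.16 and 3.93% ± 1.45 (SD, n = 2 each). The AMPA genes together stood at 4.95 and 4.97 times the NMDA genes in E18 libraries, 4.19 and 4.52 times in P5 libraries, and 3.78 and 3.95 times in Adult libraries. That ratio was thus lower at each later age, with no overlap between the ages.

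The isoform values show which transcripts carried the levels of the genes. Of the 49 listed isoforms, 42 are listed as equal to an annotated transcript, and 29 had a mean of at least 1 FPKM and were tested. For P5 against E18, 0 of the 29 were called by limma (9 had an unadjusted p under 0.05), where 0.804% of all 34941 tested isoforms were called higher, 0.824% lower and 1.63% in either direction. For Adult against P5, 12 were called higher and 4 lower, where 19.2% of all isoforms were called higher, 24.1% lower and 43.3% in either direction. For Adult against E18, 17 were called higher and 1 lower, where the shares were 17.9%, 26.8% and 44.7%. For Gria3-202, Grin2a-202 and 1 of the entries named Gria3-208, the listed length (5371, 15844 and 6198 bases) exceeds that of the GENCODE M21 transcript of that name (3081, 5023 and 3645 bases). Isoform FPKM are estimates that divide shared reads among transcripts, and their errors are not in the table.

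The flop share of flip plus flop FPKM was higher in Adult than in P5 libraries for each AMPA gene. For Gria3, whose exon pair is shown above, flop held 16.7% and 13.8% of flip and flop FPKM in E18 libraries, 24.0% and 18.4% in P5 libraries and 56.5% and 64.5% in Adult libraries. Adult values were thus more than double those of any younger library. The flop isoform Gria3-202 had 8.03 and 10.4 FPKM in Adult libraries, against 1.88 and 0.904 FPKM in P5 libraries, and rose by 2.11 on the log2 scale (SE 0.26; adjusted p = 0.00202, limma). The flip isoform Gria3-201 had 6.18 and 5.71 FPKM in Adult libraries, against 5.97 and 4.01 FPKM in P5 libraries (log2 difference 0.23; adjusted p = 0.426). The higher Gria3 level in Adult therefore did not include a called change of its flip isoform. Isoforms with neither exon also stood higher, averaging 3.78 FPKM in P5 libraries and 11.6 FPKM in Adult libraries. Of these, the retained-intron isoforms Gria3-207 and the longer Gria3-208 were called higher (adjusted p = 0.0208 and 0.0175, limma), the shorter Gria3-208 not. Isoforms with just 1 of the exons held 67.2% of Gria3 FPKM at E18, 54.8% at P5 and 54.7% in Adult. As a share of all Gria3 FPKM, flop isoforms held 15.3% and 8.41% at P5 and 33.1% and 32.7% in Adult.

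In Gria1 the gene level hid opposite isoform changes. Flop held 45.1% and 42.8% in E18 libraries, 35.8% and 32.2% in P5 libraries and 69.9% and 68.6% in Adult libraries. The flip isoform Gria1-201 had 4.53 and 6.60 FPKM in Adult libraries, against 13.5 and 13.3 FPKM in P5 libraries, and fell by 1.15 in log2 units (adjusted p = 0.00517, limma). The flop isoform Gria1-202 had 10.5 and 14.4 FPKM in Adult libraries, against 7.53 and 6.30 FPKM in P5 libraries, and rose by 0.76 (adjusted p = 0.0231, limma). Gria1, the AMPA gene with no called change in any comparison of the deposited FPKM, thus had called changes in both of its main isoforms. Isoforms were fitted on the deposited FPKM only. With TPM the gene was called lower in Adult against P5 (-0.96, adjusted p = 0.000644, limma). Whether the isoform changes hold with that scaling was not tested, whereas the flop share does not depend on it.

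For Gria2, flop held 44.7% and 43.7% in E18 libraries, 40.2% and 44.6% in P5 libraries and 64.2% and 68.4% in Adult libraries. Its flip isoform Gria2-202 had 12.2 and 14.1 FPKM in Adult libraries, against 31.1 and 21.5 FPKM in P5 libraries, and fell by 0.92 in log2 units (adjusted p = 0.0193, limma). The flop isoform Gria2-201 had 21.9 and 30.5 FPKM in Adult libraries, against 20.9 and 17.3 FPKM in P5 libraries (log2 difference 0.43; adjusted p = 0.150). The share in Gria2 covers less than the whole gene, since isoforms with just one of the exons, flip or flop, held 45.1% of Gria2 FPKM at E18, 48.6% at P5 and 36.2% in Adult. Most of the rest lay in Gria2-204 and Gria2-206, annotated as retained introns, which have neither exon and averaged 25.2 and 38.8 FPKM in Adult libraries. As a share of all Gria2 FPKM, flop isoforms held 19.6% and 20.3% in E18 libraries and 21.5% and 19.5% in P5 libraries. In Adult libraries they held 22.8% and 25.2%, a smaller shift than on the base of flip plus flop.

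For Gria4 the flop share of flip plus flop FPKM was the highest of the AMPA genes at every age, with 72.5% and 74.0% in E18 libraries, 81.6% and 85.4% in P5 libraries and 93.6% and 89.8% in Adult libraries. Its main flop isoform Gria4-201 had 38.1 and 43.3 FPKM in Adult libraries, against 25.9 and 25.9 FPKM in P5 libraries, and rose by 0.63 on the log2 scale (adjusted p = 0.0128, limma). The flip isoform Gria4-202 had 2.83 and 5.55 FPKM in Adult libraries, against 8.21 and 5.62 FPKM in P5 libraries (log2 difference -0.64; adjusted p = 0.138). A shorter coding isoform, Gria4-203, ends before both alternative exons, at 11 exons and 2338 bases, and averaged 19.3 FPKM in E18 libraries, 24.5 FPKM in P5 libraries and 37.2 FPKM in Adult libraries. As a share of all Gria4 FPKM, flop isoforms held 42.2% and 44.9% in E18 libraries, 51.6% and 53.3% in P5 libraries and 52.8% and 51.6% in Adult libraries, so that on this base Adult and P5 overlapped.

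Summed over Gria1 to Gria4, flop held 52.9% and 52.6% of flip and flop FPKM in E18 libraries, 53.2% and 56.3% in P5 libraries and 76.1% and 76.5% in Adult libraries. Between E18 and P5 the genes differed in direction: the flop share was higher at P5 in Gria3 and Gria4, lower in Gria1, and overlapping in Gria2. Exact permutation tests over the 6 libraries gave p = 0.0667, the smallest possible, for Gria1, Gria3, Gria4 and the sum, and 0.133 for Gria2; over 9 isoform shares tested, the adjusted values were 0.1 and 0.150. The markers of amacrine, bipolar, Muller glia and rod cells were also higher in Adult libraries, and their part in the flop shares was not tested.

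**Figure D5:**
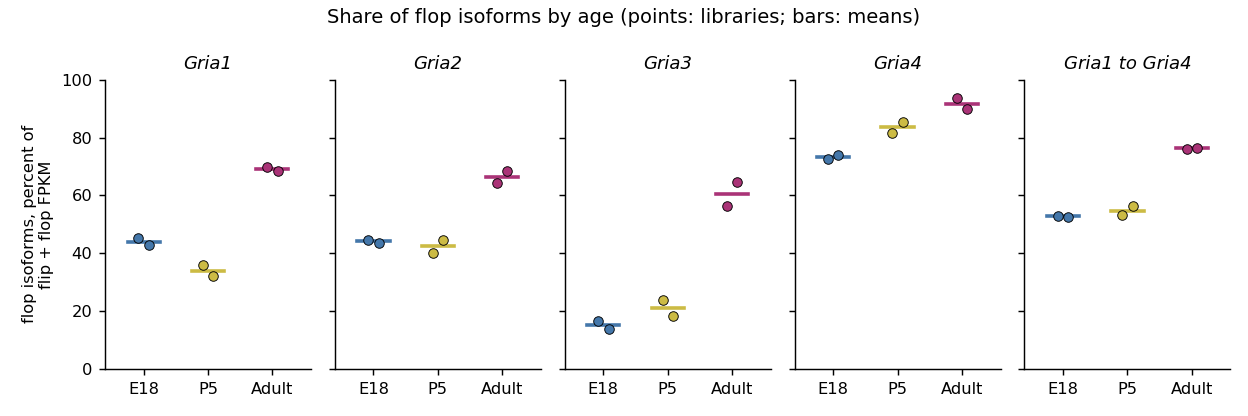
Percent of flip and flop FPKM held by flop isoforms in each AMPA gene and in their sum, at E18, P5 and in Adult; points are libraries and bars their means. Both Adult libraries are above all 4 younger libraries in every panel, from 56.5% in Gria3 to 93.6% in Gria4.

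Grin1 isoforms differed by age as well. Grin1-205, which lacks the N1 and C1 cassettes and ends in the C2′ form of the tail, had 19.3 and 24.4 FPKM in Adult libraries, against 6.91 and 4.21 FPKM in P5 libraries, and rose by 1.82 on the log2 scale (SE 0.33; adjusted p = 0.00774, limma). It held 26.5% ± 9.90 of the coding Grin1 FPKM at E18, 30.9% ± 7.04 at P5 and 65.2% ± 7.53 in Adult (SD, n = 2 each). Isoforms with the C1 cassette, which carries a signal for retention in the endoplasmic reticulum, held 18.9% and 28.7% in E18 libraries, 26.8% and 21.1% in P5 libraries and 8.29% and 6.22% in Adult libraries.
The C1 share was thus lower in both Adult libraries than in any other. Isoforms with the N1 cassette held 47.5% and 42.1% in E18 libraries, 60.8% and 61.8% in P5 libraries and 40.1% and 29.4% in Adult libraries. The N1 share was therefore highest at P5. Of the N1 isoforms without C1, Grin1-203, with the C2 end, had 7.90 and 6.90 FPKM in Adult libraries, against 4.25 and 3.15 FPKM in P5 libraries, and rose by 0.85 (adjusted p = 0.0232, limma), whereas Grin1-207, with the C2′ end, had 2.37 and 1.13 FPKM in Adult libraries, against 2.56 and 4.14 FPKM in P5 libraries (log2 difference -0.68; adjusted p = 0.150). Exact permutation p over the 6 libraries was 0.0667 for the N1 share, 0.200 for the C1 share and 0.133 for the Grin1-205 share (0.1, 0.200 and 0.150 after adjustment over the 9 isoform shares).

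Short annotated transcripts made up much of Grin2a and Grin2b. Grin2b-206, a coding fragment of 601 bases in 2 exons at the 5′ end of the gene, held 59.9% ± 3.21 of Grin2b FPKM at E18, 62.1% ± 7.00 at P5 and 43.1% ± 11.2 in Adult (SD, n = 2 each). It had 1.89 and 4.85 FPKM in Adult libraries, against 9.04 and 8.54 FPKM in P5 libraries, and fell by 1.25 on the log2 scale (SE 0.36; adjusted p = 0.0366, limma). The longer isoforms differed among themselves. Grin2b-201, of 24060 bases, had 1.86 and 2.08 FPKM in Adult libraries, against 1.48 and 1.74 FPKM in P5 libraries (log2 difference 0.19; adjusted p = 0.650), and against E18, with 0.00503 and 0.747 FPKM, it rose in Adult by 1.16 (adjusted p = 0.0259, limma). An unannotated variant of 23838 bases had 0.000585 and 0.0189 FPKM in Adult libraries, against 2.17 and 0.997 FPKM in P5 libraries, and Grin2b-202, of 7484 bases, had 0.672 and 0.784 FPKM, against 1.29 and 0.934 FPKM; both had means under 1 FPKM and were not tested.
Taking only isoforms of at least 2000 bases, a choice made after the values were seen, Grin2b had 3.50 and 4.66 FPKM in Adult libraries, against 6.78 and 4.20 FPKM in P5 libraries, and the log2 difference of -0.33 was not called (adjusted p = 0.233). Grin2a by the same count had 5.74 and 8.74 FPKM in Adult libraries, against 1.50 and 1.35 FPKM in P5 libraries (log2 difference 1.74; adjusted p = 0.000187, limma). The ratio of Grin2a to Grin2b was then 1.64 and 1.87 in Adult libraries and 0.222 and 0.321 in P5 libraries. The higher Grin2a and the higher ratio in Adult were thus present without the short transcripts, whereas the fall of Grin2b was not called without them. Genes on the opposite strand also share exonic positions with Grin2b and with Grin2d.

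Other subunits of glutamate receptors and their partners were set beside the members; their counts are to be read against the shares of all tested genes called, 5.52% higher and 4.95% lower for P5 against E18 and 26.2% higher and 33.7% lower for Adult against P5. Grin2c, an NMDA subunit best known from cerebellum, had 0.381 and 0.140 FPKM in E18 libraries, 1.01 and 0.636 FPKM in P5 libraries and 2.08 and 3.89 FPKM in Adult libraries, and rose in Adult against P5 by 1.10 on the log2 scale (adjusted p = 0.0159, limma). Of the 7 kainate and delta receptor genes, 4 were called higher and 2 lower in Adult against P5, and 2 higher and 1 lower in P5 against E18 (all genes: 59.8% and 10.5% in either direction). Grik2, a kainate receptor subunit, fell by 0.84 in P5 against E18 (adjusted p = 0.0275, limma) and rose by 2.37 in Adult against P5 (adjusted p = 9.57e-05, limma), with 42.2 and 51.0 FPKM in Adult libraries, against 7.39 and 9.09 FPKM in P5 libraries. Grik1, a kainate receptor subunit that is also a marker of bipolar cells, rose by 1.36 in Adult against P5, and Grid1, a delta receptor gene, fell by 1.14 (adjusted p = 0.00196 and 0.000549, limma). The median log2 difference over the 7 genes was 0.46 for P5 against E18 and 0.45 for Adult against P5, beside 0.54 and 0.38 for the 9 members.

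Among 12 tested auxiliary subunits of AMPA and kainate receptors, 3 were called higher and 0 lower in P5 against E18, and 3 higher and 3 lower in Adult against P5, where 59.8% of all genes were called. Cnih3, a cornichon that slows channel closing, had 11.2 and 11.0 FPKM in Adult libraries, against 2.48 and 2.17 FPKM in P5 libraries (log2 difference 1.86; adjusted p = 0.000278, limma), and its relative Cnih2 had 27.3 and 31.1 FPKM in Adult libraries, against 88.6 and 95.6 FPKM in P5 libraries (log2 difference -1.63; adjusted p = 0.000113, limma). These 2 cornichons thus changed in opposite directions. Cacng5, a transmembrane AMPA receptor regulatory protein, fell by 1.47 in Adult against P5 (adjusted p = 0.000144, limma).

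Among 18 tested scaffold and trafficking genes of the postsynapse, 5 were called higher and 0 lower in P5 against E18, and 8 higher and 6 lower in Adult against P5, with medians of 0.26 and 0.05, beside -0.03 and -0.07 for all genes. In either direction, 10.5% and 59.8% of all genes were called. Nsf, the ATPase that binds the Gria2 product, had 89.4 and 72.5 FPKM in P5 libraries, against 32.4 and 36.1 FPKM in E18 libraries, and rose by 1.21 on the log2 scale (adjusted p = 0.00958, limma). In Adult it stood at 152 and 161 FPKM, 0.95 above P5 (adjusted p = 0.00130, limma). Dlg1, a scaffold that binds the Gria1 product, rose by 1.73 in Adult against P5 and Grip2, a scaffold of Gria2 and Gria3 products, by 1.46 (adjusted p = 9.40e-05 and 0.000450, limma).

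Adarb1, the enzyme that edits the Gria2 transcript, had 52.7 and 50.7 FPKM in P5 libraries, against 25.3 and 26.9 FPKM in E18 libraries, and rose by 0.96 on the log2 scale (adjusted p = 0.0194, limma). In Adult libraries it had 148 and 198 FPKM, 1.71 above P5 (adjusted p = 0.000229, limma). Its levels thus separated all 3 ages, as did those of Grin1. Editing itself cannot be read from these values. Rest, the repressor of neuronal genes including some NMDA subunits, had 1.66 and 2.41 FPKM in P5 libraries, against 4.56 and 2.79 FPKM in E18 libraries, and passed no test (adjusted p = 0.152). Of the calcium signalling partners, Camk2a rose by 0.70 and Ppp3ca, a calcineurin subunit, fell by 0.92 in Adult against P5 (adjusted p = 0.0297 and 0.000608, limma).
Of 8 metabotropic glutamate receptor genes, 0 were called in P5 against E18, and 5 were called higher and 1 lower in Adult against P5. Grm8 rose by 1.80 and Grm3 fell by 1.84 in Adult against P5 (adjusted p = 0.000243 and 0.000278, limma). Grm6, the receptor of ON bipolar cells, stood at 3.68 and 3.91 FPKM in Adult libraries and at or under 0.0141 FPKM in all 4 younger ones.

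The genes whose profile over the 6 libraries was nearest to Grin2a, by Euclidean distance of centred log2(FPKM + 1) among genes with a mean of at least 5 FPKM, were Inpp4b, Fgf14 and Kcnk1, at distances of 0.41, 0.51 and 0.51. Inpp4b, a phosphoinositide phosphatase, had 30.1 and 44.8 FPKM in Adult libraries, against 10.3 and 8.68 FPKM in P5 libraries. For Grin2b, Rgs17 and Usp46 were among the nearest 3, at 0.39 and 0.40, with their highest levels at P5, and for Gria2 the nearest were Ikbip, Tmem179 and Asph, at 0.14, 0.18 and 0.19. These distances rest on 6 libraries and describe likeness of profile alone.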

How the data were processed

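The authors deposited isoform FPKM for 6 libraries of polyA-selected RNA, from paired reads of 100 bases, per the labels' protocols. Per the submitters' processing notes, HISAT2, Cufflinks and Cuffdiff were used with mm10 (GRCm38); versions, strand use and scaling between libraries are not given in the sources used here. Each listed isoform reached 1 FPKM in at least 1 library, and 0.0001 stands in place of 0. A further 10 numeric columns were not used. FPKM keep no counts, so the depth behind each value is unknown and only the libraries of an age show its error.

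Isoform FPKM were summed per symbol, and log2(FPKM + 1) of genes with a mean of at least 1 FPKM was fitted over all 6 libraries with limma 3.58.1 in R 4.3.3 (eBayes with trend, two-sided, Benjamini-Hochberg over all genes, called under 0.05). Isoforms were fitted likewise. The fit was tested on simulated data. Ratios and shares had exact permutation tests. Exons came from GENCODE M21. The named genes were all 9 members, and in each further list the 3 genes of smallest p and the 1 of highest mean level; the report gives some of these. Likeness excluded Gm, Rik and small RNA symbols, and 1 clone-named neighbour of Grin2b is left out. Members and lists were chosen with earlier results of these data known. The alternatives were another pseudocount, no filter, TPM, scaling to protein-coding genes, quantile normalization, 4 libraries, annotated isoforms, fragments, left-out libraries and a replicate block. Isoforms of at least 2000 bases, Grin2c in the summed Grin2 genes and flop as a share of the whole gene were added after the data were seen.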

Additional observations from a re-analysis of the deposited data

How the results depend on the processing

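For P5 against E18, 2 members were called, but 4 with TPM, 1 with only the 4 libraries compared, 1 with annotated isoforms only, and 0 to 1 when a library was left out. The count of genes called, 1507, became 696 with only the 4 libraries and, with a library left out, 28 and 117 (E18 replicates 1 and 2), 10 and 579 (P5 libraries a and b), and 640 and 642 (Adult replicates 1 and 2). With TPM, 1945 of 14390 genes were called, 76.0% of them higher, and with annotated isoforms only 1365 of 14267. The Grin2a to Grin2b log2 ratio for P5 against E18, 0.23, was -0.04 with 1 FPKM added and 0.61 from fragments. It was -0.57 to 1.03 when a library was left out, and the cause was not tested. For Adult against P5 it was 2.99 to 3.12 and for Adult against E18 2.48 to 4.08 with a library left out. With TPM, Adult against P5 was -0.54 for Gria2 and -0.37 for Gria4 (adjusted p = 0.00780 and 0.0271, limma). Adult against E18 was -0.55 for Gria1 (adjusted p = 0.00814, limma). These were calls in the lower direction, and TPM moves the median of all genes by construction. Of the members' log2 changes under all alternatives, 333 of 387 kept direction and side of the threshold, 33 lost a call, 14 gained one and 7 changed sign, 4 of them without a call in either setting (Gria1 for Adult against P5, 0.09 with protein-coding scaling; Gria1 for Adult against E18, -0.10 without Adult replicate 2; Grin2b for Adult against E18, 0.03 without Adult replicate 1 and 0.10 with isoforms of 2000 bases or more). Only the 4 libraries compared, a left-out library of the age not compared, and the replicate block keep each log2 change by construction. In these settings only a call could change, so the tally overstates how well directions held. With annotated isoforms only or with fragments, 21 subunit shares moved by over 1 SD. Grin2a in Adult was at 56.6% with annotated isoforms only, and Grin2d in Adult at 7.99% with fragments. Leaving out 1 of 2 libraries cannot move a mean by 1 SD and says nothing of stability. TPM and protein-coding scaling put the share of higher among called genes at 16.6% and 61.0% for Adult against P5, against 43.8%. The replicate numbers pair nothing (r = 0.02 between the E18 and Adult differences of replicates 1 and 2). With a replicate block, 7 members were called for Adult against E18, as without it, and 8056 of 14390 genes were called. The log2 ratio of Grin2a to Grin2b was then 3.28. No paired analysis was possible for P5 because its columns carry no number. No depth is known, so low genes such as Grin2d have an unknown counting error.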
